A study of Mus musculus with 8 samples.

Results

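Gene expression was compared between mouse blood progenitors that received the transcription factor HoxB4 by 2 routes. The HoxB4 group (n = 2 arrays) carried a HoxB4 retrovirus and was grown without doxycycline. The iHoxB4 group (n = 2 arrays) was grown with doxycycline, and its labels name no virus. These 4 arrays, chosen by their titles, were taken from the 8 samples of the series. Another group, MigR1 (n = 2 arrays), carried a control retrovirus without doxycycline and is set beside them for reference. In all 3 groups c-Kit+CD41+ cells, obtained from embryonic stem (ES) cells after 6 days as embryoid bodies, were grown on the bone marrow stromal line OP9. Per the labels the RNA is from day 8 of that coculture, whereas the series text names day 12 and a second selection on c-Kit. The ES cell line of the expression samples and the iHoxB4 construct are not given in the sources used here. One label calls the HoxB4 virus a control retrovirus, and the group was taken from its title. No MigR1 sample with doxycycline and no iHoxB4 sample without it were analysed here, so the route of delivery and the drug cannot be told apart. Unlike MigR1, iHoxB4 had the drug, and its labels name no virus, so its differences from MigR1 cannot be put down to HoxB4 alone. Nothing in the labels tells if replicate arrays stem from separate cultures. The p-values therefore reflect only how far these arrays scatter, and that scatter may be technical.

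HoxB4 is a homeodomain protein that binds DNA together with partners such as the Pbx and Meis proteins. When overexpressed it expands blood stem and progenitor cells in culture, and it is widely used to obtain transplantable cells from ES cells. A retrovirus inserts at many places in the genome and drives its insert continuously from the viral promoter. In a doxycycline-inducible system the insert is switched on by the drug and its level depends on the dose. c-Kit is a tyrosine kinase that responds to stem cell factor. CD41 is an integrin found on early blood cells and megakaryocytes.

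Each array gave a score for 35557 probe sets, of which 27329 lay above the 25th percentile on at least 2 arrays and were tested. The scale of the deposited score is unknown, so differences are given in score units and no fold change can be given. All 6 arrays shared nearly the same distribution, with a median of 45.4 and quartiles of 37.3 and 57.3. A percentile within an array therefore places a score on any scale that keeps the order. No table used here links probe sets to genes. Probe sets are therefore given by number, markers of c-Kit+CD41+ cells or of OP9 could not be checked, and the level of HoxB4 itself is not reported.

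The 2 HoxB4 arrays differed from each other by a median of 0.460 score units over the tested probe sets, and the 2 iHoxB4 arrays by 0.432. Between the groups, the 4 pairings of a HoxB4 with an iHoxB4 array differed by medians of 0.607 to 0.711. The number of probe sets at least 5 units apart was 134 between the HoxB4 arrays and 113 between the iHoxB4 arrays. It was 383 to 454 for pairings across these groups. The MigR1 arrays stood apart from each other, with a median difference of 0.863 and 827 probe sets at least 5 units apart. That is within the range of MigR1 against iHoxB4 pairings, which had medians of 0.825 to 1.02. Pairings of MigR1 with HoxB4 arrays had medians of 0.990 to 1.10.

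The comparison asked how the expression state of HoxB4 progenitors depends on the route by which HoxB4 was supplied. In iHoxB4, 357 probe sets had a higher score than in HoxB4 (1.31% of those tested) and 185 a lower one (0.677%), together 1.98%, by limma with a Benjamini-Hochberg threshold of 0.05. Without adjustment the directions were nearly even at that threshold, with 2015 higher (7.37%) and 1961 lower (7.18%). The median difference of the called probe sets was 4.52 score units for higher ones, with a range from 2.23 to 23.6. For lower ones the median was -4.43, with a range from -18.8 to -2.30. Over all probe sets tested the median absolute difference was 0.555. A difference of at least 5 units was found for 137 higher and 77 lower called probe sets, and one of at least 10 units for 17 and 16. If the order of the arrays were random, 2 against 2 arrays would not overlap at a rate of 0.333. The groups did not overlap for 52.7% of all tested probe sets, 6450 higher (23.6%) and 7947 lower (29.1%). Among these, 638 higher and 372 lower probe sets differed by at least 3 units. At 10 units or more there were 18 of each. Non-overlap alone therefore leaned toward lower scores, differences of at least 3 units leaned toward higher ones, and those of at least 10 units toward neither.

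The counts depend on the fit. With limma array weights 925 higher and 630 lower probe sets passed, and with no filter on low scores 244 and 123. Leaving out either array of HoxB4 or of iHoxB4 left 0 calls in limma, with smallest adjusted p-values from 0.0717 to 0.0960. In those 4 fits an unadjusted threshold of 0.05 gave 1197 to 1468 higher scores and 873 to 1160 lower ones. The differences themselves moved less. That of probe set 10419151 ran from 21.7 to 25.6 in these fits and that of 10461735 from -19.2 to -18.4. Each of these fits sets 1 array against 2, so the lost calls do not show that the differences rest on 1 array. With the MigR1 arrays left out of the fit, 437 higher and 268 lower probe sets passed, of which 336 and 168 were the same as with all arrays.

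**Figure D1:**
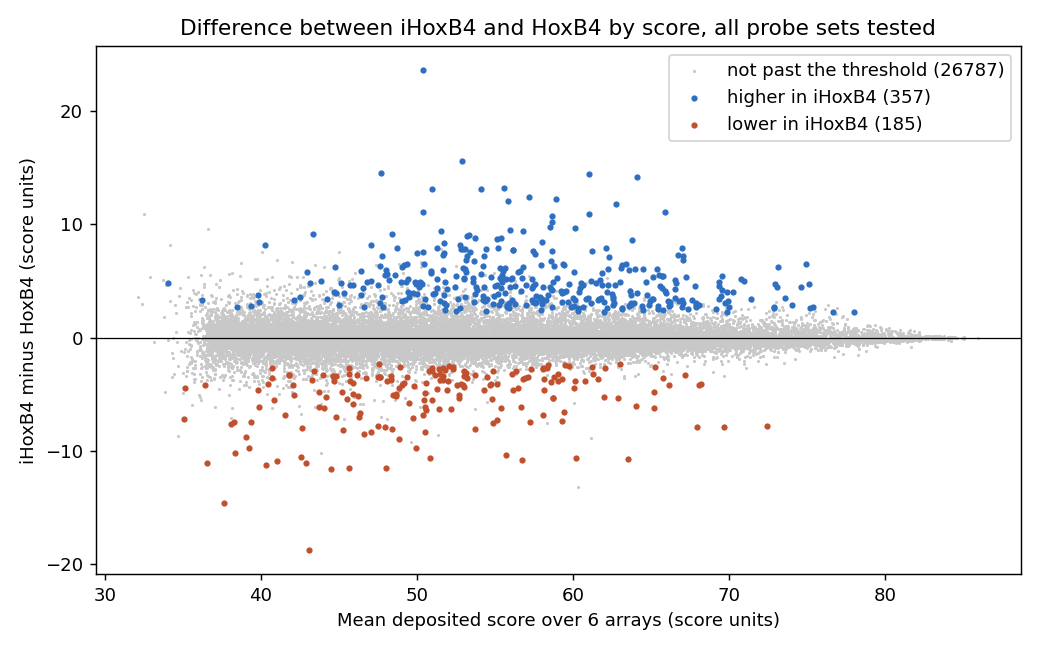
Each point is 1 of 27329 tested probe sets, with the mean score over 6 arrays on the horizontal axis and iHoxB4 minus HoxB4, in score units, on the vertical axis. The 357 higher (blue) and 185 lower (red) called probe sets run from -18.8 to 23.6 and start at 2.23 and -2.30, where they overlap the uncalled ones (grey).

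The probe sets named below were chosen for their large differences on these same arrays, and their intervals make no allowance for that choice. The largest difference was at probe set 10419151. Its score was 30.01 and 32.98 on the HoxB4 arrays, 57.1 and 53.2 on the iHoxB4 arrays, and 63.8 and 65.3 on the MigR1 arrays. The HoxB4 arrays were low, at percentiles 10.9 and 15.8, while the iHoxB4 arrays stood at 74.6 and 67.4, below both MigR1 arrays. The difference, iHoxB4 minus HoxB4, was 23.6 ± 1.66 (SE, n = 2 arrays per group; 95% interval from 19.4 to 27.9; limma adjusted p = 0.00833).

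Probe set 10419154 had the same order of groups. Its scores were 38.5 and 39.3 in HoxB4, 55.93 and 53.03 in iHoxB4, and 65.7 and 64.8 in MigR1. No array of a group reached into another group. The difference was 15.6 ± 1.04 (SE, n = 2 per group; 95% interval from 12.9 to 18.3; limma adjusted p = 0.00741). Both probe sets were also below MigR1 in each HoxB4 group. For 10419151 the differences from MigR1 were -33.1 in HoxB4 (limma adjusted p = 0.000788) and -9.41 in iHoxB4 (limma adjusted p = 0.0493). For 10419154 they were -26.4 in HoxB4 (limma adjusted p = 0.000452) and -10.8 in iHoxB4 (limma adjusted p = 0.0126). The sources used here do not say whether these 2 close numbers measure the same transcript, so they may not be independent.

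Probe set 10461735 had the largest difference in the other direction. It scored 57.3 and 56.5 in HoxB4, 37.9 and 38.4 in iHoxB4, and 34.4 and 34.0 in MigR1. The HoxB4 arrays stood at percentiles 74.9 and 73.5 and the iHoxB4 arrays at 26.6 and 28.2, close above MigR1 at 18.6 and 17.7. The difference was -18.8 ± 0.454 (SE, n = 2 per group; 95% interval from -19.9 to -17.6; limma adjusted p = 0.00224). Against MigR1 it was higher by 22.7 in HoxB4 (limma adjusted p = 0.000239) and by 3.93 in iHoxB4 (limma adjusted p = 0.0191).

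At probe set 10401831 the iHoxB4 arrays, at 31.0 and 29.9, were the lowest of the 6. The HoxB4 arrays were the highest, at 44.8 and 45.3, and the MigR1 arrays lay between them but far apart, at 40.3 and 34.6. The difference was -14.6 ± 1.87 (SE, n = 2 per group; 95% interval from -19.4 to -9.75; limma adjusted p = 0.0378). Neither group passed against MigR1, with 7.63 in HoxB4 (limma adjusted p = 0.0644) and -6.94 in iHoxB4 (limma adjusted p = 0.114). Its call was lost under 5 of 10 other settings that kept all the compared arrays, whereas those of the other 3 probe sets were kept under 11 of 11. The SE pools all 6 arrays, and the SD here was 4.03 in MigR1, 0.336 in HoxB4 and 0.816 in iHoxB4. In a fit of only the 4 HoxB4 and iHoxB4 arrays its limma adjusted p was 0.00928. The same fit gave 0.0163 for 10419151, 0.0157 for 10419154 and 0.00893 for 10461735.

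**Figure D2:**
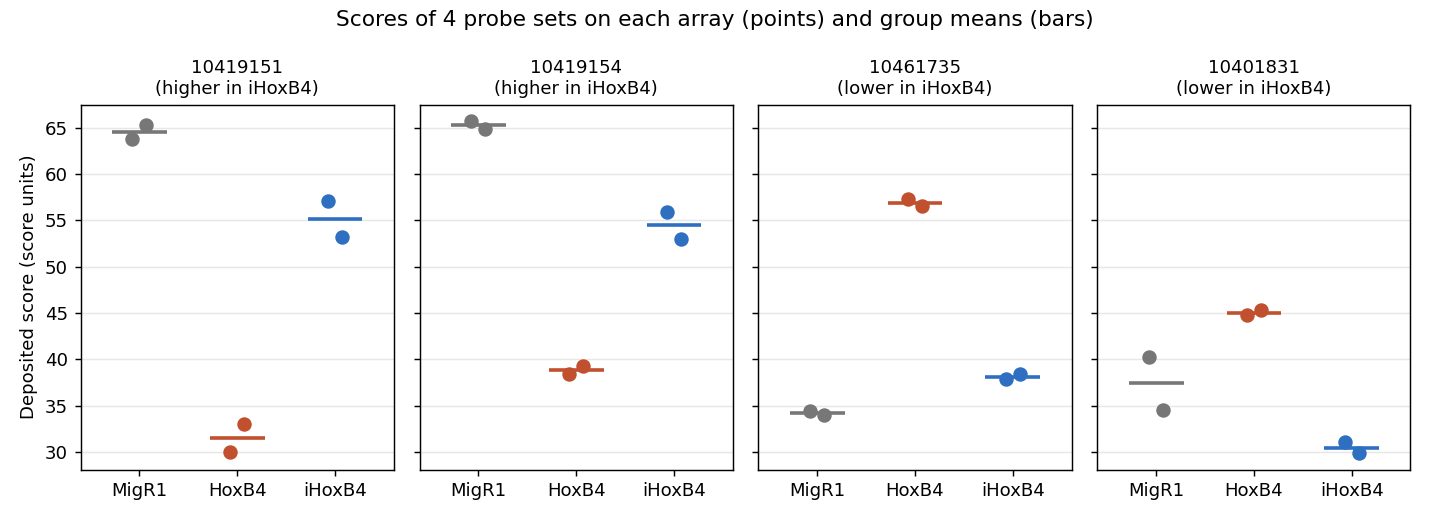
Deposited score of the 4 probe sets with the largest differences, with 1 panel per probe set, 1 point per array and a bar at the mean of each group of 2 arrays. In 10419151 and 10419154 iHoxB4 lies between HoxB4 and MigR1, in 10461735 it lies near MigR1, and in 10401831 it lies below both.

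Placing the called probe sets against the control virus showed where iHoxB4 stood. HoxB4 shares with MigR1 a retrovirus and no doxycycline, whereas iHoxB4 had the drug and its labels name no virus. The MigR1 comparisons reuse the HoxB4 and iHoxB4 arrays on which these probe sets were chosen, so the counts describe the lists and carry no test. Over all probe sets tested, HoxB4 was higher than MigR1 for 5.94% and lower for 6.8%, and iHoxB4 was higher for 1.53% and lower for 3.37% (limma, adjusted p under 0.05). Of the 357 probe sets higher in iHoxB4 than in HoxB4, 350 had a HoxB4 mean below that of MigR1, and 322 had an iHoxB4 mean below it as well. The iHoxB4 mean lay between the other means for 322 of them (90.2%), against 45.8% of all probe sets tested. The 185 lower probe sets divided differently. HoxB4 was above MigR1 for 178 of them, while iHoxB4 was above for 102 and below for 83. Its mean was the middle one for 102 (55.1%) and that of MigR1 for 76 (41.1%, against 22.5% of all tested).

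The largest class, 244 probe sets, was lower than MigR1 in HoxB4 and in iHoxB4, and less so in iHoxB4. Over all 27329 tested, 859 were lower in both, 997 were lower in HoxB4 and not called in iHoxB4, and 1337 were higher in HoxB4 and not called in iHoxB4. In the class of 244 the medians of the group means were 63.4 in MigR1, 56.5 in iHoxB4 and 50.8 in HoxB4. That order is fixed by how the class was defined. A further 96 were lower than MigR1 in HoxB4 alone by the threshold, with medians of 62.2 in MigR1, 60.2 in iHoxB4 and 56.1 in HoxB4. Their median difference between iHoxB4 and MigR1 was -1.22, so missing the threshold there does not show equal levels.

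Among probe sets lower in iHoxB4 than in HoxB4, 137 were higher than MigR1 in HoxB4 and did not pass in iHoxB4. The medians of their group means were 53.7 in HoxB4, 48.3 in iHoxB4 and 48.6 in MigR1. For these the iHoxB4 differences from MigR1 ran from -4.84 to 4.77, with a median of 0.26. Another 25 were higher than MigR1 in both groups, with a median difference of 8.65 in HoxB4 and 3.48 in iHoxB4. Over all 27329 tested, 286 were higher than MigR1 in both.

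Against MigR1, iHoxB4 passed for 256 of the 357 higher and 35 of the 185 lower probe sets. By that threshold, few called probe sets had iHoxB4 above both other groups or below both. Over all tested, too, those called against MigR1 in iHoxB4 and not in HoxB4 were fewer, 129 higher and 62 lower. In 10 probe sets iHoxB4 was higher than HoxB4 and than MigR1, while HoxB4 did not pass against MigR1. Their medians were 58.5 in iHoxB4, 53.2 in HoxB4 and 52.4 in MigR1. In 5 probe sets iHoxB4 was lower than both, with medians of 49.9 in iHoxB4, 54.1 in HoxB4 and 53.7 in MigR1, and HoxB4 again did not pass against MigR1. In 4 others iHoxB4 was lowest and HoxB4 was itself lower than MigR1, with median differences from MigR1 of -6.36 in iHoxB4 and -2.87 in HoxB4. In 2 higher and 1 lower probe sets the HoxB4 groups passed against MigR1 in opposite directions. A further 5 higher and 13 lower probe sets passed between the HoxB4 groups without passing in either group against MigR1.

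By array values, both iHoxB4 arrays lay outside the range of the other 4 arrays for 32 of the 357 higher (8.96%) and 64 of the 185 lower (34.6%) probe sets, against 16.2% of all tested. Both HoxB4 arrays lay outside the range of the other 4 for 349 higher (97.8%) and 178 lower (96.2%), against 29.1% of all tested. The calls thus separate HoxB4 from the other arrays more often than iHoxB4. The size of these shares is favoured by the choice of probe sets on the same arrays.

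**Figure D3:**
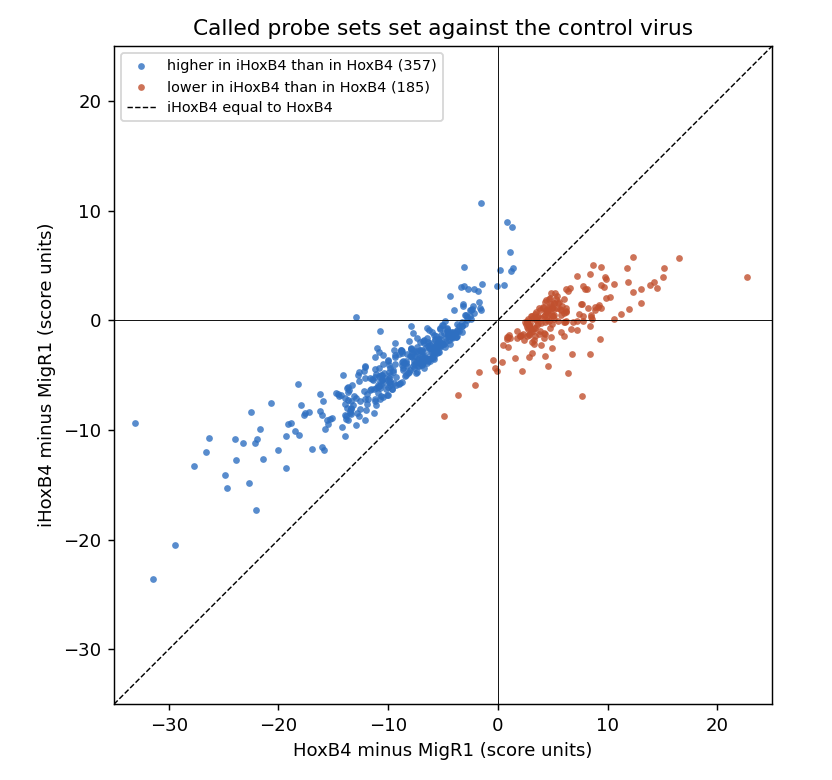
Each point is a called probe set, with HoxB4 minus MigR1 on the horizontal axis and iHoxB4 minus MigR1 on the vertical axis, in score units. The dashed line marks equal HoxB4 and iHoxB4 means, and both axes use the same MigR1 arrays. Most of the 357 higher probe sets (blue) lie at the lower left, between the dashed line and the horizontal zero line, and the 185 lower ones (red) scatter around that zero line to the right.

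The calls were spread unevenly over score levels, taken as the mean of all 6 arrays. From 35 to 45 score units, iHoxB4 exceeded HoxB4 for 16 of 9087 probe sets (0.176%) and fell short for 40 (0.44%). From 45 to 55 the counts were 117 and 88 of 7844, and from 55 to 65 they were 154 and 46 of 6183, or 2.49% and 0.744%. From 65 to 75, 64 of 3215 were higher (1.99%) and 11 lower (0.342%), and at 75 and over 5 of 973 were higher and 0 lower. Lower calls thus outnumbered higher ones in the band from 35 to 45, and higher calls led in each band above it. The spread between arrays fell along the same bands. The median SD was 0.425 in HoxB4 and 0.459 in iHoxB4 from 35 to 45, and 0.226 and 0.161 from 65 to 75. The part of this spread in the number of calls was not tested.

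**Figure D4:**
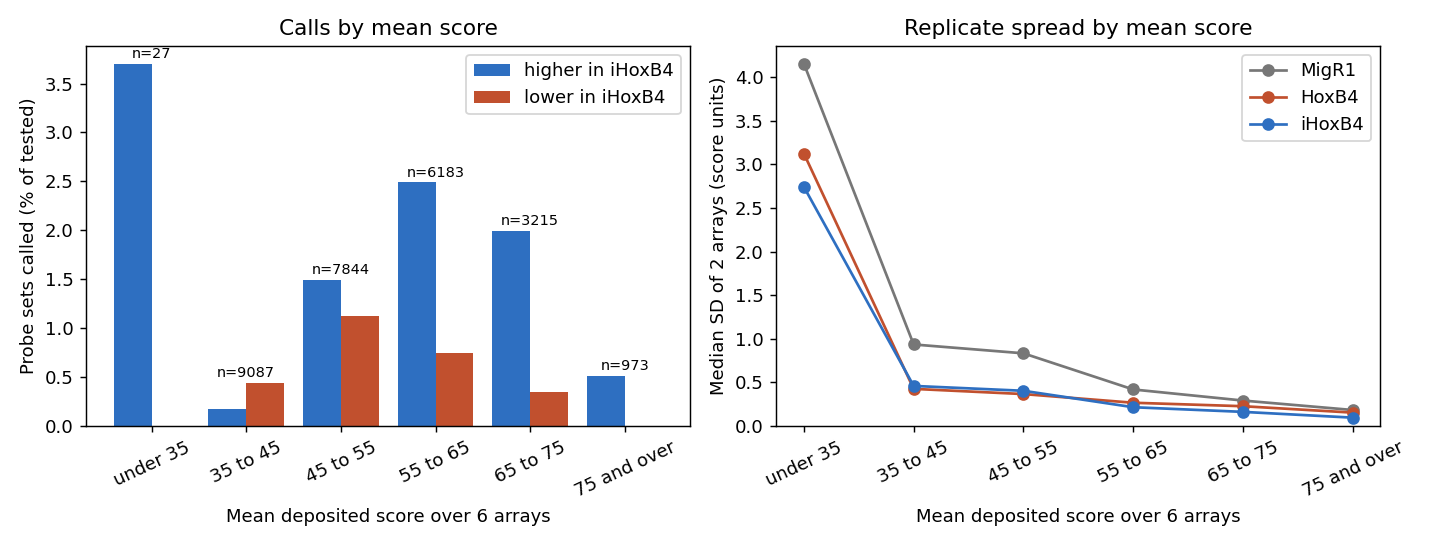
Left, the share of tested probe sets called higher (blue) or lower (red) in iHoxB4 in each band of the mean score over 6 arrays, with the number tested above each pair of bars. Right, the median SD of the 2 arrays of each group in the same bands, in score units. From 35 up, higher calls peak at 2.49% in the band from 55 to 65, and the spread is largest for MigR1 in every band. The band under 35 holds 27 probe sets with 1 call.

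The first 6614 probe sets of the table have consecutive numbers, unlike the rest, and whether they measure genes was not determined here. They made up 18.4% of those tested, but 6.44% of the higher and 1.08% of the lower calls, with 23 and 2 probe sets. Their arrays varied more, with a median SD of 0.697 in HoxB4 and 0.689 in iHoxB4, against 0.286 and 0.263 for the rest. Without them 539 higher and 350 lower probe sets passed of 22306 tested.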

How the data were processed

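Expression was measured on 6 Affymetrix arrays. The authors deposited 1 value per probe set, here called a score because no source used here gives its scale. The submitters' processing notes list Affymetrix Expression Console and RMA, without version. Groups and replicate numbers came from the titles. A linear model with 1 mean per group was fitted to the untransformed score of all 6 arrays by lmFit and eBayes of limma 3.58.1 (R 4.3.3; prior degrees of freedom 1.99), with Benjamini-Hochberg adjustment over all 27329 probe sets tested. No log was taken because the replicate SD did not grow with the score. The SD fell at higher scores, and the prior of the main fit had no trend with the score. The fit was run on simulated scores with known differences, and the check required only that the median estimates lie close to them. It set no requirement on the adjusted p-values or on false calls. The members, lists and settings were chosen with earlier results of these data known. Only the 2 largest differences each way, among called probe sets whose groups did not overlap, are named. The rule asked for gene names and gene lists where annotation pairs probe sets with genes. None was used here, so the lists were not tested and the binding arrays of the series were not joined. An exact permutation test of 2 against 2 arrays cannot go below p = 0.333. The number of arrays limits the precision.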

Additional observations from a re-analysis of the deposited data

Results flagged for a closer look

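Against MigR1, 3 probe sets were called in opposite directions in HoxB4 and iHoxB4, and all 3 also passed in the direct test between these groups. In the first, HoxB4 scored 45.4 and 44.7, MigR1 47.5 and 48.8, and iHoxB4 52.6 and 53.3 (iHoxB4 minus HoxB4 7.90 ± 0.602 SE, limma adjusted p = 0.00951). That probe set lies in the first run of 6614 consecutive numbers and has the largest called difference there. Arrays varied more in that run, and whether it measures genes was not determined. In the second, HoxB4 scored 61.3 and 61.4, MigR1 56.9 and 55.9, and iHoxB4 53.8 and 54.0 (difference -7.45 ± 0.437 SE, limma adjusted p = 0.00663). In the third, HoxB4 scored 48.4 and 47.7, MigR1 49.7 and 49.9, and iHoxB4 52.6 and 52.4 (difference 4.47 ± 0.389 SE, limma adjusted p = 0.0132). They were picked after their values were seen and are left without numbers. The count depends on the setting in limma. It was 2 with log2 or percentile ranks, 11 above the array median, 9 with the trend prior, 6 without the first run of numbers and 3 with arrays shifted to 1 mean or a MigR1 array left out. It was 0 with no filter, array weights, either replicate block or any HoxB4 or iHoxB4 array left out.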

How the results depend on the processing

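Log2 of the score gave 279 higher and 140 lower probe sets in iHoxB4 than in HoxB4, of which 275 and 140 were among those of the report. Percentile ranks, an alternative chosen after seeing the data, gave 290 and 142. The counts moved by over 1.5 times with limma array weights (925 and 630), a trend and robust prior (696 and 329), scores above the array median on at least 2 arrays (629 and 349) and the first run of numbers left out (539 and 350). With no filter 123 were lower. With all 6 arrays in the fit, the class of 244 probe sets lower than MigR1 in both groups held from 69 (replicate block) to 407 (trend prior). With 1 array left out they ranged from 0 to 437 higher and from 0 to 268 lower. The lone array of a group adds no spread and is assumed to vary like the others. With the replicate number as a block, 102 higher and 42 lower passed. The labels do not tie the numbers to cultures, and the deviations of same-numbered arrays correlated at 0.25 (MigR1 and HoxB4), -0.46 (MigR1 and iHoxB4) and -0.18 (HoxB4 and iHoxB4). With the iHoxB4 numbers crossed in the block, an alternative added after seeing the data, 250 and 139 passed.

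For iHoxB4 against MigR1, 417 were higher and 922 lower. The higher count became 244 with log2, 209 with no filter, 1105 above the median, 122 with array weights, 1305 with the trend prior, 34 with the replicate block and 662 without the first run. The lower count became 544, 1462 and 317 with weights, trend prior and block. With 1 array left out they ranged from 0 to 889 and from 0 to 1165. For HoxB4 against MigR1, 1624 were higher and 1858 lower. The higher count became 826 with weights, 2442 with the trend prior and 515 with the block, and the lower count 1130 with the block. With 1 array left out they ranged from 160 to 2428 and from 664 to 2091. No named probe set turned its direction. The alternatives for gene lists and for binding were not run, because probe sets carry no gene names here. The cause of these shifts was not tested.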
